A study of Mus musculus with 24 samples.

Results

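Gene expression was compared between B cell progenitors lacking both PLCγ isoforms and their wild-type counterparts, in 6 of the 24 RNA-seq libraries of the series. The 6 were chosen by 2 labels, the cell population B cell progenitor and the genotype, PLCgamma1-/-PLCgamma2-/- (3 libraries, written Plcg1-/-Plcg2-/- or double-deficient here) or PLCgamma1+/+PLCgamma2+/+ (3 libraries, wild-type). Donor mice of every genotype carried a YFP reporter and MxCre, a Cre recombinase under an interferon-inducible promoter, and were treated with poly(I-C). The double-deficient donors were also Plcg1 fl/fl, so that this treatment deleted Plcg1, and lacked Plcg2 in the germline. Donor bone marrow was transplanted into lethally irradiated CD45.1+ wild-type recipients. Bone marrow cells with the surface phenotype CD45.2+B220+IgM-IL-7R+, CD45.2 being the donor form, were sorted from them for poly(A) RNA-seq. The B cell progenitors of the Plcg1-/-Plcg2+/+ and Plcg1+/+Plcg2-/- genotypes (3 libraries each) entered the same fit and are given beside the comparison. How many donors each genotype had is not given in the sources used here, so p-values measure the spread between recipients. The deletion is not restricted to B cells, since MxCre acts throughout the hematopoietic system and in other tissues of the donor.

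PLCγ1 and PLCγ2 cleave the membrane lipid PIP2 into diacylglycerol, which activates protein kinase C and RasGRP proteins, and IP3, which releases calcium from intracellular stores. In bone marrow, lymphoid progenitors become pro-B cells, which rearrange the immunoglobulin heavy chain locus and depend on IL-7. A heavy chain that pairs with the surrogate light chain forms the pre-B cell receptor, whose signals drive the cell into the pre-B stage. Pre-B cells first expand under these signals, then stop dividing and rearrange light chain genes.

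The 3 wild-type libraries held 9826067 to 14212061 reads on genes and the 3 double-deficient libraries 2858724 to 25057223, so that the smallest, double-deficient library 1, carried the largest counting error. Another 59.9% to 71.4% of the reads of the wild-type and 60.3% to 63.0% of the double-deficient libraries lay on no annotated gene. Values below are normalized CPM, the reads on a gene scaled to the reads on all genes with TMM factors. Genes were called where edgeR's quasi-likelihood test gave an adjusted p no higher than 0.05 and the log2 fold change was 0.5 or more in size, and fold changes are double-deficient relative to wild-type unless stated. Values of the 3 libraries of a group are given in the order of their replicate numbers, wild-type against double-deficient. B lineage genes were present in all 6 libraries. Pax5, which encodes the B lineage commitment factor, stood at 177, 218 and 158 in the wild-type and 52.9, 152 and 109.7 in the double-deficient libraries. None of the 9 B lineage markers of the check list, Ebf1, Igll1 and Vpreb1 included, was called. That list also holds Il7r and Ptprc, whose proteins (IL-7R and B220) were part of the sort. Plcg2 was at 215, 243 and 246 in wild-type and 72.7, 91.2 and 111 in double-deficient libraries (log2 fold change -1.35, adjusted p = 0.00251). Plcg1 was at 113, 86.5 and 80.7 against 56.5, 183 and 140.3, a difference that was not called (log2 fold change 0.46, adjusted p = 0.594). The counts sum over a whole gene and cannot show the loss of single floxed exons, so that the Plcg1 count does not check the label.

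The genotypes also differed in sex-linked transcripts. Xist, whose reads cannot be told apart from those of the overlapping antisense Tsix, was at 88.8, 49.5 and 87.0 in wild-type and 1670, 2068 and 1600 in double-deficient libraries, and the Y-linked Ddx3y at 194, 175 and 185 against 8.26, 3.79 and 12.4. The Plcg1-/-Plcg2+/+ libraries were like the double-deficient ones in both genes (means 1928 for Xist and 13.7 for Ddx3y) and the Plcg1+/+Plcg2-/- libraries like the wild-type ones (99.9 and 167). Sex of the donors and double deficiency therefore cannot be told apart in the comparison with wild type. For most of the called genes named below the comparison with Plcg1-/-Plcg2+/+, in which these transcripts do not separate the groups, is given as well. Among those without it are Serinc3, 0610039K10Rik, Pkig, Myo1e and Cnp.

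Of 15001 genes tested, 134 were called (0.893%), 33 higher (0.22%) and 101 lower (0.673%) in double-deficient cells. At an unadjusted p under 0.05 there were 857 higher (5.71%) and 984 lower genes (6.56%). The 6 libraries fitted alone gave 238 calls among 12749 genes (1.87%; 0.635% higher and 1.23% lower), DESeq2 444 among 15001 (2.96%) and a block for the replicate number 550 (3.67%). The 3 double-deficient libraries all lay below the 3 wild-type libraries for 1614 genes (10.8%) and above them for 1340 (8.93%), and every called gene was among these. Leaving out double-deficient library 1 gave 119 calls (67 lower, 52 higher), 86 of them among the 134, and leaving out double-deficient library 2 or 3 or wild-type library 1, 2 or 3 gave 54, 50, 66, 52 and 61. The mean of the Plcg1-/-Plcg2+/+ libraries lay between wild-type and double-deficient for 96 of the 101 lower and 29 of the 33 higher genes, and the mean of the Plcg1+/+Plcg2-/- libraries for 96 and 25. Of the called lower genes 24 were members of a stage, pathway or cell type list and 77 were in none, and of the called higher genes 2 and 31.

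Genes of the pre-B stage were the list with most calls. The lists were written with earlier results of these data known, so that such counts are not independent support. Of its 16 genes 13 were tested, 7 were called lower (0.673% over all genes tested) and none higher. In 10 all double-deficient libraries lay below all wild-type ones (10.8% over all genes tested). The median log2 fold change was -1.77, beside -0.02 over all genes tested. Ighm, Igkc and Igkj1 were not analysed here. In bulk RNA, fewer cells of a stage and less RNA of its genes per cell cannot be told apart.

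Il2ra encodes CD25, the interleukin-2 receptor chain whose appearance at the surface marks the pre-B stage. Its level was 74.3, 74.3 and 48.1 in the wild-type and 8.59, 2.93 and 8.53 in the double-deficient libraries, without overlap, 10.6-fold lower by the fitted estimate (means 65.6 ± 15.1 against 6.69 ± 3.25, SD, n = 3 and 3; log2 fold change -3.40 (SE 0.51), adjusted p = 0.00818). The single-deficient means were 45.7 (Plcg1-/-Plcg2+/+) and 26.1 (Plcg1+/+Plcg2-/-), both between those of wild-type and double-deficient cells. Against Plcg1-/-Plcg2+/+ cells the fall was called as well (log2 fold change -2.89, adjusted p = 0.0465).

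Irf4, Ikzf3 and Bach2 encode transcription factors of the pre-B and later stages. Irf4, which acts in light chain gene activation, was at 515, 651 and 773 in wild-type and 72.4, 114 and 148 in double-deficient libraries (log2 fold change -2.53 (SE 0.47), adjusted p = 0.0271). Bach2, a transcriptional repressor, was at 735, 653 and 610.4 against 106, 165 and 160.3 (log2 fold change -2.21 (SE 0.32), adjusted p = 0.00747); the library kit does not mark strand, so that reads of Bach2os, an antisense gene within Bach2, cannot be told apart from it. In both genes the highest double-deficient library was below the lowest wild-type library by more than the spread within either group. Ikzf3 (Aiolos), of the Ikaros family, was at 339, 192 and 225 against 67.4, 38.0 and 75.1 (log2 fold change -2.08, adjusted p = 0.0233). The related Ikzf1, the most abundant gene of the list, was at 1006, 1035 and 1005 against 421, 610.4 and 589, also without overlap, and missed the threshold (log2 fold change -0.91, adjusted p = 0.0655).

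Surface proteins made up the rest of the calls. Cd22, an inhibitory co-receptor of the B cell receptor, was at 127, 126 and 144 in wild-type and 46.3, 34.4 and 48.9 in double-deficient libraries (log2 fold change -1.62 (SE 0.24), adjusted p = 0.00747), and it was also called lower than in Plcg1-/-Plcg2+/+ cells (-1.36, adjusted p = 0.0465). The adhesion molecule Cd2 was at 35.4, 30.8 and 35.5 against 13.9, 3.23 and 11.1 (log2 fold change -1.95, adjusted p = 0.0386). The ectoenzyme Cd38 was at 137, 102 and 67.6 against 27.1, 26.4 and 30.7 (log2 fold change -1.86, adjusted p = 0.047). Neither Cd2 nor Cd38 had a double-deficient library within the wild-type range. The other 5 of the 7 genes were not called against Plcg1-/-Plcg2+/+ cells, where the log2 fold changes were -1.69 for Irf4 (adjusted p = 0.167), -1.47 for Bach2 (adjusted p = 0.116), -1.71 for Ikzf3 (adjusted p = 0.122), -1.73 for Cd2 (adjusted p = 0.14) and -1.44 for Cd38 (adjusted p = 0.167).

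The 7 calls did not rest on the libraries equally. Il2ra, Bach2 and Cd22 were called without any one of the 6 libraries. Irf4 and Cd38 were not called when any single library was left out, Ikzf3 only when wild-type library 2 was, and Cd2 only when double-deficient library 1 or 2 was, and not in the fit of the 6 libraries alone. The estimates then ranged from -2.78 to -2.30 for Irf4, -2.06 to -1.59 for Cd38, -2.27 to -1.81 for Ikzf3 and -2.31 to -1.46 for Cd2, below 0 in every case. The summed level of the 13 tested pre-B genes was 5137, 5482 and 5451 in the wild-type, 2427, 2817 and 2824 in the double-deficient, 3196, 4427 and 3844 in the Plcg1-/-Plcg2+/+ and 3251, 5433 and 3824 in the Plcg1+/+Plcg2-/- libraries. All 3 double-deficient sums were below every other sum of the 12.

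**Figure D1:**
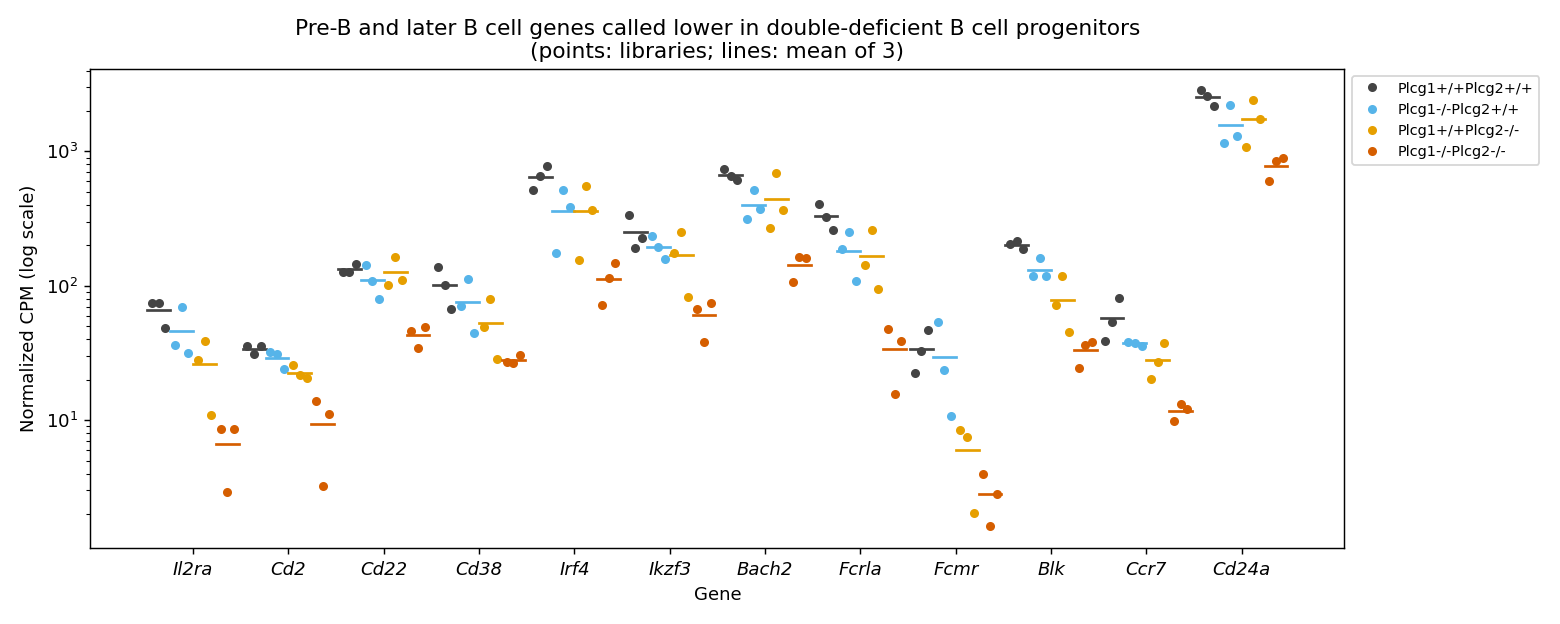
Normalized CPM on a log axis of 12 genes called lower in double-deficient B cell progenitors, with 1 point per library and a line at the mean of 3 libraries of each of the 4 genotypes. For each gene the 3 double-deficient points lie below the 3 wild-type points, as for Il2ra with 2.93 to 8.59 against 48.1 to 74.3, and most single-deficient means lie between.

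Promoter sequences of 2 of these genes, Il2ra and Irf4, are shown as examples. Both transcripts fell and each has 1 promoter entry, which also holds for Cd38, Cd22 and Bach2, not shown. The 250 bases before the start of each gene come from RefSeq on GRCm38.p6, and capitals mark matches on either strand to the Ikaros core TGGGAA, the E-box CAGGTG, the EBF motif (TCCC, 2 bases of any kind, GGGA), the ETS-IRF composite (GGAA, 2 bases of any kind, GAAA) and the interferon response motif (GAAA, 2 bases of any kind, GAAA). Of 9139 genes tested with 1 promoter entry, 20.7% held the Ikaros core, 15.7% the E-box, 0.875% the EBF motif, 2.19% the composite and 2.78% the interferon motif in this window.
Il2ra, chr2:11642542-11642791, plus strand: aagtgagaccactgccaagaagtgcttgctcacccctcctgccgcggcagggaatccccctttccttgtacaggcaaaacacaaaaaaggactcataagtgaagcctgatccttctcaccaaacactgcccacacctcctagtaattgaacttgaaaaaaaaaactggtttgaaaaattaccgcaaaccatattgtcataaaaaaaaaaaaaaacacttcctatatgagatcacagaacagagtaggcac
Irf4, chr13:30748983-30749232, plus strand: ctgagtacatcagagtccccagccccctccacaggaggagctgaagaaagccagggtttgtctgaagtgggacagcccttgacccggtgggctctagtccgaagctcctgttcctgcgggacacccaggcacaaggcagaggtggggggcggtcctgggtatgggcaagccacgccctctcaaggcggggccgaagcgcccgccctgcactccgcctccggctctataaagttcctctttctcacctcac
Neither window held one of the 5 motifs, while that of Cd38 held the Ikaros core, that of Cd22 the EBF motif and that of Bach2 the composite. The windows of Il2ra, Irf4 and Cd38 end at the annotated start of the gene, while those of Cd22 and Bach2 were not matched to it. Shares over genes with 1 promoter entry also include windows without such a match. Among the 66 called lower genes with 1 promoter entry, 9 held the Ikaros core (13.6%), 13 the E-box (19.7%), 2 the EBF motif (Cd22 and Myo1e) and 2 the composite (Bach2 and Cnp). These are matches of letters and not shown to be sites.

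Genes of immature and mature B cells followed. Of 32 listed genes 30 were tested, 4 were called lower (0.673% over all genes tested) and none higher, and the median log2 fold change was -0.57. Blk, a Src family kinase of the B cell receptor and pre-B cell receptor pathway, was at 205, 217 and 187 in wild-type and 24.5, 36.3 and 38.4 in double-deficient libraries (log2 fold change -2.60 (SE 0.29), adjusted p = 0.00139). Fcrla, an intracellular Fc receptor-like protein of B cells, was at 404, 323 and 258 against 47.6, 15.6 and 39.1 (log2 fold change -3.31 (SE 0.48), adjusted p = 0.00747). Both genes were lower in each double-deficient library than in any library of the other 3 genotypes.

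Fcmr, the receptor for the Fc part of IgM, was at 22.6, 32.8 and 46.6 in wild-type and 3.97, 1.62 and 2.80 in double-deficient libraries (log2 fold change -3.77 (SE 0.61), adjusted p = 0.0133). In Plcg1+/+Plcg2-/- cells, with Plcg1 intact, it was at 8.45, 7.43 and 2.04, a range that overlapped the double-deficient one, and in Plcg1-/-Plcg2+/+ cells at 53.8, 23.4 and 10.8. Ccr7, a chemokine receptor for lymph node homing, was at 38.9, 53.4 and 81.4 against 9.92, 13.1 and 12 (log2 fold change -2.29, adjusted p = 0.00243). Against Plcg1-/-Plcg2+/+ cells Blk (-1.98, adjusted p = 0.0323), Fcmr (-3.55, adjusted p = 0.0465) and Ccr7 (-1.65, adjusted p = 0.0457) were called lower too, and Fcrla was not (-2.46, adjusted p = 0.0663). Blk, Fcrla and Ccr7 were called without any one library, while Fcmr was not called without double-deficient library 2 or 3 or wild-type library 3, with estimates of -4.01 to -3.39. Spib, an ETS factor and one of the most abundant genes of the list, was at 695, 631 and 532 against 199.7, 299 and 318 and missed the threshold (log2 fold change -1.18, adjusted p = 0.0759).

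Genes of earlier stages were examined in turn. Of 19 pro-B genes tested none was called higher and 1 lower (0.673% over all genes tested). The median log2 fold change was 0.32, a direction that rested on single libraries. It was -0.11 without double-deficient library 2 and 0.70 without library 1. The called gene was Cd24a, the heat stable antigen that is displayed from the pro-B stage on, at 2849, 2578 and 2184 in wild-type and 603, 842 and 899 in double-deficient libraries (log2 fold change -1.70 (SE 0.31), adjusted p = 0.025). Its call held only without wild-type library 3 (estimates -1.80 to -1.53 over the 6 omissions), and it was not called against Plcg1-/-Plcg2+/+ cells (log2 fold change -0.997, adjusted p = 0.169). Rag1, of the recombinase, was at 1000, 914 and 598 against 392, 2048 and 1131, with the double-deficient libraries on both sides of the wild-type range.

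Within the double-deficient group, library 1 had the lowest level of the pro-B list. The summed level of the 19 genes was 10670, 11330 and 8290 in the wild-type and 4921, 14940 and 10550 in the double-deficient libraries, so that the double-deficient libraries spanned a wider range than the wild-type ones and enclosed it. The sums were 4823, 9480 and 6582 in Plcg1-/-Plcg2+/+ and 5025, 11050 and 8458 in Plcg1+/+Plcg2-/- libraries. Library 1 was thus the lowest of each PLCγ-deficient genotype but not of the wild type. Dntt, the template-independent polymerase of pro-B cells, was at 458, 584 and 334 against 245, 2117 and 1151 (log2 fold change 1.35, adjusted p = 0.49). Igll1, of the surrogate light chain, was at 490.2, 499 and 316 against 404, 1278 and 982 (log2 fold change 1.03, adjusted p = 0.461).

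Of 13 early lymphoid progenitor genes none was called, with 12 estimates above 0 (48.2% of all genes tested were above 0) and a median log2 fold change of 0.65 (0.38 without double-deficient library 1 and 0.41 without wild-type library 1). The cytokine receptor Flt3 was at 56.3, 30.9 and 48.0 in wild-type and 112, 58.0 and 77.3 in double-deficient libraries (log2 fold change 0.86, adjusted p = 0.395). Ly6a, which encodes Sca-1, was at 7.79, 7.21 and 13.3 against 34.4, 16.1 and 23.2 (log2 fold change 1.35, adjusted p = 0.388). For both genes the 2 groups did not overlap.

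**Figure D2:**
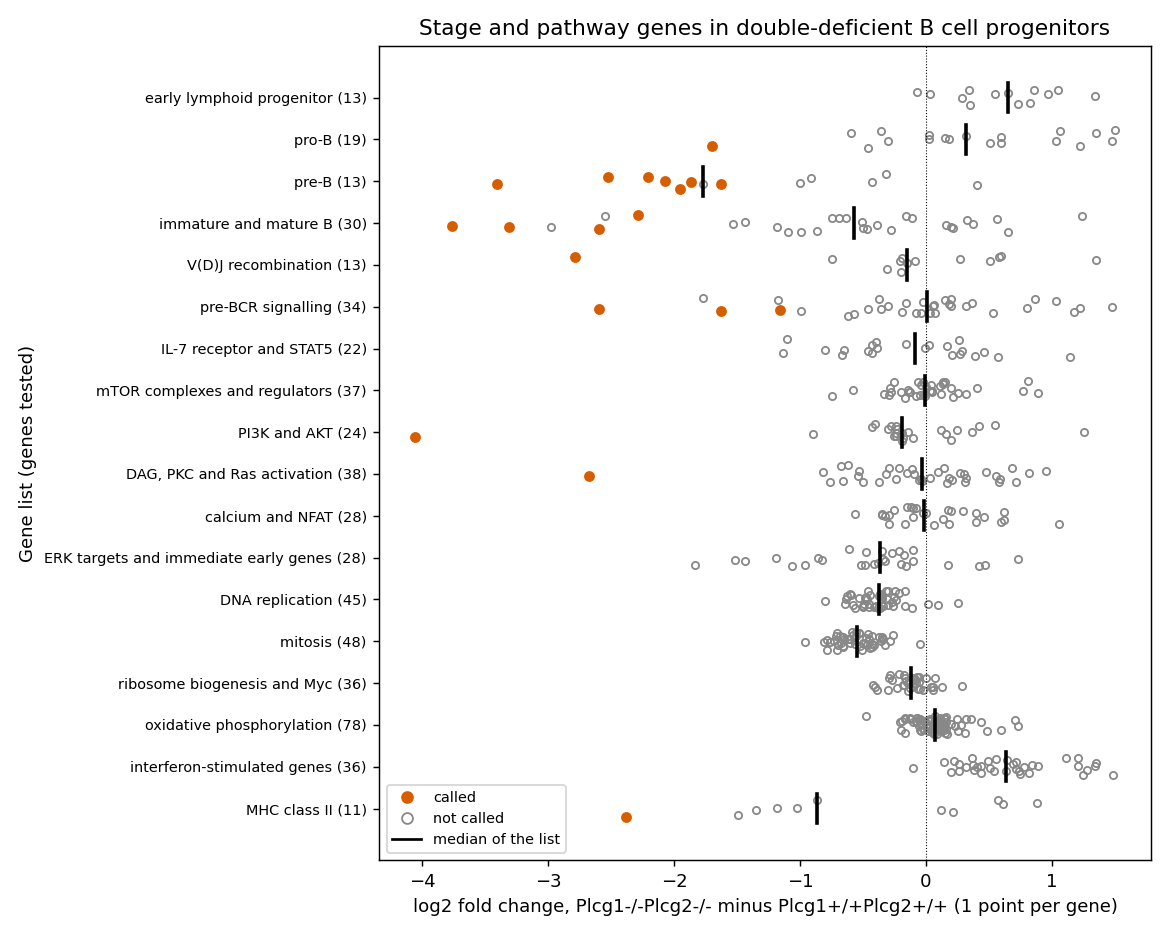
Log2 fold change of double-deficient relative to wild-type B cell progenitors, 1 point per tested gene in 18 stage and pathway lists, with called genes filled and the median of each list as a black line. The medians run from -1.77 for the pre-B list to 0.65 for the early lymphoid progenitor list, and the points of the mitosis list all lie below 0.

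Signaling genes around PLCγ were next examined. Upstream, in the pre-B cell receptor list, 3 of 34 genes were called lower (0.673% over all genes tested), none higher, and the median log2 fold change was 0.01. Besides Blk and Cd22 the called gene was Dok3, an adaptor that restrains B cell receptor signaling, at 414, 447 and 370.1 in wild-type and 191, 167 and 194 in double-deficient libraries (log2 fold change -1.16 (SE 0.20), adjusted p = 0.018). Dok3 kept its call only without double-deficient library 1 (estimates -1.19 to -1.09), and against Plcg1-/-Plcg2+/+ cells it was not called (log2 fold change -0.63, adjusted p = 0.173). Syk, the kinase that relays pre-B cell receptor signals and the most abundant of the list, was at 1185, 1421 and 1198 against 429, 682 and 570.0, without overlap, and was not called (log2 fold change -1.18, adjusted p = 0.107).

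Downstream, on the diacylglycerol side, 1 of 38 genes was called, beside 0.893% of all genes tested. This was Rasgrp1, a diacylglycerol-activated exchange factor that loads Ras with GTP, at 83.6, 50.6 and 68.7 in wild-type and 16.5, 2.93 and 14.9 in double-deficient libraries (log2 fold change -2.67 (SE 0.50), adjusted p = 0.0271). Plcg1-/-Plcg2+/+ libraries were at 77.0, 57.2 and 57.3, all within the wild-type range, and the difference from them was not called (log2 fold change -2.59, adjusted p = 0.0733). The call against wild type was lost without double-deficient library 3 or any of the 3 wild-type libraries (estimates -3.05 to -2.11), and in the fit of the 6 libraries alone. The median over the list was -0.03.

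On the calcium side, none of 28 tested calcium and NFAT genes was called (median -0.01), and none of 24 NF-κB genes (median -0.09). None of 28 ERK target and immediate early genes was called, with 24 estimates below 0 and a median of -0.36. Dusp10, a phosphatase of the MAP kinase pathway, came nearest to the threshold at 15.6, 23.3 and 26.2 in wild-type and 8.26, 6.34 and 9.73 in double-deficient libraries (log2 fold change -1.44, adjusted p = 0.0733). The summed level of the ERK target and immediate early genes was 3778, 7503 and 11590 in wild-type and 2349, 4525 and 8660 in double-deficient libraries. In all 4 genotypes these sums went with the replicate number, at 2349 to 3778 in the libraries of number 1, 4525 to 7503 in those of number 2 and 8660 to 11590 in those of number 3, and within each number the double-deficient library was the lowest of the 4. The NF-κB sums also went with the number (1605 to 1925, 1990 to 2542 and 2835 to 3284). The median of the ERK list ran from -1.21 without double-deficient library 3 to 0.19 without wild-type library 3. With a block for the number it was -0.485, and 5 of its genes were called lower, beside 2.4% of all genes. What the replicate number stands for is not given in the sources used here.

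IL-7 receptor and mTOR genes showed no call. Il7r was at 462, 507 and 317 in wild-type and 153, 424 and 353 in double-deficient libraries, with overlap (log2 fold change -0.46 (SE 0.44), adjusted p = 0.681). All cells were sorted for surface IL-7R, so that the level of Il7r is not independent of the sort. None of 22 genes of the IL-7 receptor and STAT5 list was called (median -0.08). The lowest adjusted p of the list belonged to Pim2, a survival kinase, at 21.9, 27.7 and 26.3 against 15.5, 14.4 and 13.7 (log2 fold change -0.80, adjusted p = 0.1).

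Bcl2l1, which encodes the survival protein Bcl-xL, was at 112, 131 and 106 in wild-type and 35.7, 61.6 and 60.1 in double-deficient libraries (log2 fold change -1.14, adjusted p = 0.214), and Socs1, a feedback inhibitor of cytokine receptors, at 18.3, 25.7 and 29.6 against 8.93, 9.02 and 16.1 (log2 fold change -1.10, adjusted p = 0.215). Neither had overlapping groups. None of 37 mTOR complex and regulator genes was called (median -0.0046), Mtor itself being at 161, 133 and 155 against 75.7, 105 and 85.6 (log2 fold change -0.75, adjusted p = 0.175). Of 24 PI3K and AKT genes 1 was called lower (0.673% over all genes tested), the adaptor Irs1. It was at 9.59, 9.91 and 4.95 against 0.992, 0.51 and 0.133 (log2 fold change -4.06, adjusted p = 0.0233), near the level of 3 reads in the double-deficient libraries. Irs1 was not called without double-deficient library 2 or 3 or wild-type library 1 or 2 (estimates -4.39 to -3.62). Against Plcg1-/-Plcg2+/+ cells it was not called either (log2 fold change -3.53, adjusted p = 0.0938). These counts measure transcripts and not the activity of the pathways.

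Of 13 V(D)J recombination genes 1 was called (0.893% over all genes tested), Polm. It encodes DNA polymerase mu, which fills ends during light chain joining, and was at 138, 128 and 102 in wild-type and 19.8, 10.2 and 24.7 in double-deficient libraries (log2 fold change -2.78 (SE 0.40), adjusted p = 0.00747). The call held without any one library. Polm was at 91.8, 88.3 and 64.2 in Plcg1-/-Plcg2+/+ and 63.1, 141 and 48.3 in Plcg1+/+Plcg2-/- libraries, each above every double-deficient library, and the difference from the former was not called (log2 fold change -2.19, adjusted p = 0.0578).

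Of 11 genes of the MHC class II list 1 was called (0.893% over all genes tested), Ciita. It encodes the transactivator of the class II genes and was at 44.6, 41.2 and 41.5 in wild-type and 11.9, 5.27 and 8.67 in double-deficient libraries (log2 fold change -2.39 (SE 0.37), adjusted p = 0.00925). Both single-deficient means, 42.6 and 37.9, were near the wild-type mean of 42.5, and the fall was called against Plcg1-/-Plcg2+/+ cells too (log2 fold change -2.39, adjusted p = 0.0457). Without double-deficient library 2 or 3 the call against wild type was lost (estimates -2.63 to -2.08). The class II chain H2-Ab1 was at 163, 214 and 234 against 121, 94.8 and 121, without overlap and not called (log2 fold change -0.87, adjusted p = 0.0598). The list did not move as a whole, with 6 estimates below 0 and 5 above 0. These ran from -2.39 to 0.88, with a median of -0.87.

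In the Notch list 1 of 15 tested genes was called (0.893% over all genes tested), Dtx1. Dtx1 (Deltex), a ubiquitin ligase and Notch target, was at 13.7, 11.4 and 10.7 in wild-type and 1.65, 0.893 and 0.4 in double-deficient libraries (log2 fold change -3.75 (SE 0.49), adjusted p = 0.00459). It was called lower than in Plcg1-/-Plcg2+/+ cells as well (-3.46, adjusted p = 0.0323) and without any one library. In double-deficient libraries 1 and 3 its level was near that of 3 reads (1.05 and 0.40 CPM). The median of the Notch list was 0.30, above 0, so that the 1 call and the median differed in sign.

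Cell cycle genes had estimates mostly below 0 and no call. In mitosis genes, all 48 estimates were below 0 (51.8% of all genes tested were below 0) and the median log2 fold change was -0.54. In 35 all double-deficient libraries lay below all wild-type ones (10.8% over all genes tested). An unadjusted p under 0.05 was reached by 27 (6.56% over all genes tested, lower), and none was called. Mki67, a marker of proliferating cells, was at 2225, 1889 and 2134 in wild-type and 878, 1636 and 1178 in double-deficient libraries (log2 fold change -0.76 (SE 0.26), adjusted p = 0.251). Top2a, the topoisomerase of dividing cells, was at 2018, 1950 and 2038 against 928, 1662 and 1214 (log2 fold change -0.66 (SE 0.27), adjusted p = 0.343). The centrosomal kinase Nek2 was at 169, 182 and 201 against 72.7, 118 and 90.4 (log2 fold change -0.96 (SE 0.29), adjusted p = 0.193). None of these 3 had overlapping groups.

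DNA replication genes had 42 of 45 estimates below 0 and a median of -0.37. In 32 the double-deficient libraries all lay below the wild-type ones (10.8% over all genes tested). An unadjusted p under 0.05 was reached by 27 (6.56% over all genes tested, lower), and none was called. Cdc45, of the replicative helicase, was at 107, 117 and 108 in wild-type and 76.4, 83.3 and 74.3 in double-deficient libraries (log2 fold change -0.50, adjusted p = 0.15). Pcna, the sliding clamp, was at 600.2, 669 and 528 against 306, 475 and 404 (log2 fold change -0.60, adjusted p = 0.343). Of 27 G1 and E2F genes none was called (median -0.31), E2f8 coming nearest at 211, 225 and 219 against 139.8, 153 and 133 (log2 fold change -0.62, adjusted p = 0.0786).

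The summed level of the 48 mitosis genes was 15320, 16170 and 16320 in the wild-type and 8454, 13220 and 10260 in the double-deficient libraries, and that of the 45 replication genes 9454, 9934 and 9234 against 6466, 8263 and 6541. For both lists every double-deficient library was below every wild-type one. The Plcg1-/-Plcg2+/+ libraries were at 8908, 14000 and 12380 for mitosis and overlapped the double-deficient ones, and the median log2 fold changes of double-deficient relative to Plcg1-/-Plcg2+/+ cells were -0.12 for mitosis and -0.11 for replication, beside -0.03 over all genes. With the replicate number as a block, 20 mitosis and 5 replication genes were called lower, beside 360 of 15001 genes (2.4%) in that fit, and with DESeq2 4 and 2, beside 272 (1.81%).

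Biosynthetic and metabolic lists held no call. The medians were -0.11 over 36 ribosome biogenesis and Myc genes, 0.07 over 76 cytosolic ribosomal protein genes, 0.07 over 78 oxidative phosphorylation genes, 0.28 over 23 glycolysis genes, 0.10 over 29 genes of cholesterol and fatty acid synthesis and -0.11 over 23 ATF4 and ER stress genes. The Bcl2 family had a median of 0.02 over 14 genes, none called.

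Interferon-stimulated genes had estimates mostly above 0 and no call. All but 1 of 36 estimates were above 0 (48.2% over all genes tested), and the median log2 fold change was 0.64. In 22 all double-deficient libraries lay above all wild-type ones (8.93% over all genes tested). An unadjusted p under 0.05 was reached by 21 (5.71% over all genes tested, higher), and none was called. Trim30a, an interferon-induced ubiquitin ligase, was at 130.3, 131 and 144 in wild-type and 185, 232 and 214 in double-deficient libraries (log2 fold change 0.64 (SE 0.14), adjusted p = 0.0527). Usp18, which removes ISG15 from proteins, was at 8.69, 6.03 and 10.3 against 16.9, 21.1 and 19.7 (log2 fold change 1.21 (SE 0.27), adjusted p = 0.0685). Oas1a, an oligoadenylate synthetase, was at 8.79, 8.18 and 11.8 against 20.5, 24.4 and 21.6 (log2 fold change 1.21 (SE 0.28), adjusted p = 0.0782).

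The summed level of the 36 interferon-stimulated genes was 2352, 2474 and 2646 in the wild-type and 3263, 3788 and 3523 in the double-deficient libraries, with no overlap. Plcg1-/-Plcg2+/+ libraries were at 2742, 2448 and 3272 and Plcg1+/+Plcg2-/- libraries at 2901, 2449 and 3131. The median of the list relative to Plcg1-/-Plcg2+/+ cells was 0.17. With the replicate block 6 genes of the list were called higher, beside 190 of all genes (1.27%), and with DESeq2 6, beside 172 (1.15%). Donors of all 4 genotypes had received poly(I-C), itself an inducer of interferon. Their marrow was taken weeks after the last injection, and the cells were sorted from recipients weeks after transplantation. Any part of this treatment in these levels was not tested.

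**Figure D3:**
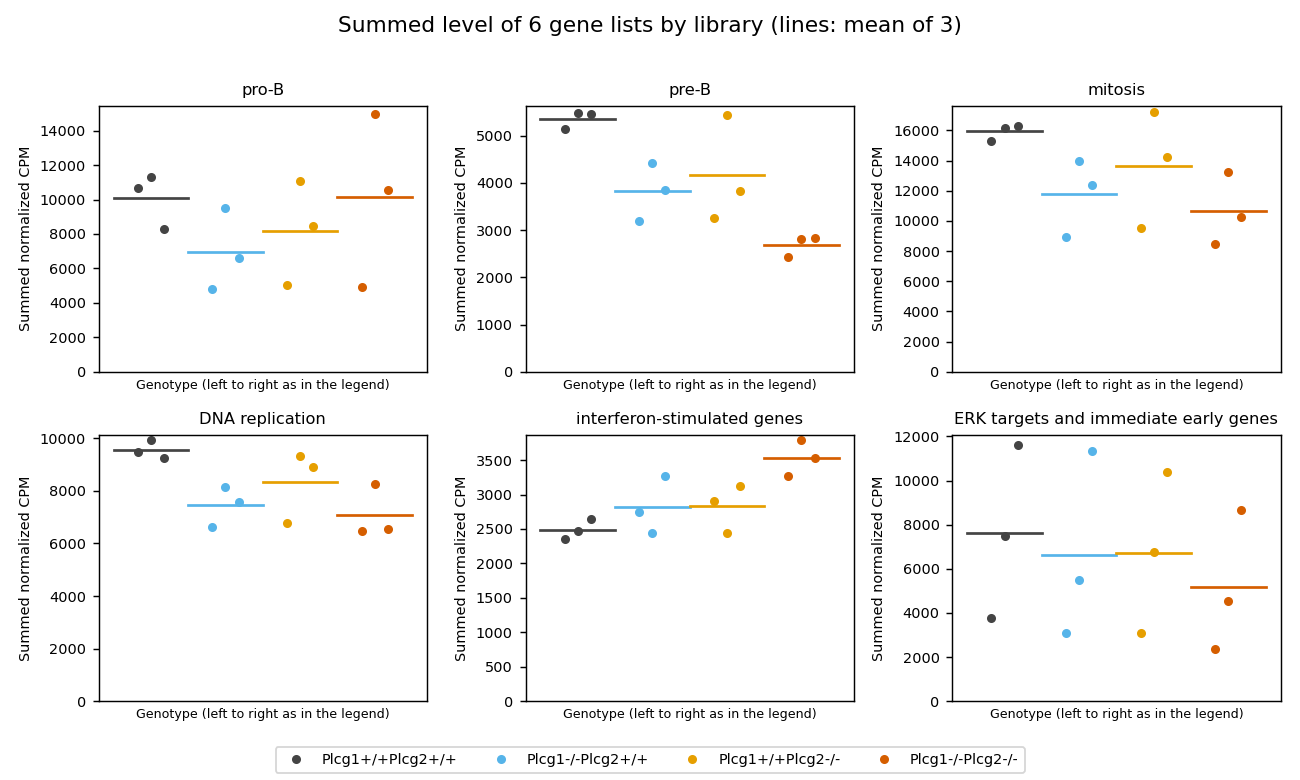
Summed normalized CPM of 6 gene lists, with 1 point per library and a line at the mean of 3 libraries of each genotype, on axes from 0. The double-deficient libraries lie below the wild-type ones for the pre-B list (2427 to 2824 against 5137 to 5482), the mitosis list and the DNA replication list, above them for interferon-stimulated genes, and on both sides of them for the pro-B list.

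The promoter of Bst2, an interferon-stimulated gene that encodes the membrane protein tetherin, is shown as the example of this list, in which 11 of 21 genes with 1 promoter entry (52.4%) held the interferon response motif, beside 2.78% of all genes tested.
Bst2, chr8:71537473-71537722, minus strand: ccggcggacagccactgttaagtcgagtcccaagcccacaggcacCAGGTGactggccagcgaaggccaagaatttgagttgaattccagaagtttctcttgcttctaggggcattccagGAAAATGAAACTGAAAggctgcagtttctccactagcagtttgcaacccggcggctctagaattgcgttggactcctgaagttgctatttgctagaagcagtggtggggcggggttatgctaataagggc
Capitals mark an E-box and 2 overlapping matches to the interferon response motif. Bst2 was at 83.2, 50.8 and 67.2 in wild-type and 204, 86.5 and 147 in double-deficient libraries (log2 fold change 1.11 (SE 0.31), adjusted p = 0.156), without overlap and not called, and it is also a marker of plasmacytoid dendritic cells. The E2F motif TTCCCGC was in 8 of 32 replication promoters (25.0%, all genes 6.82%) and the CHR element TTTGAA in 12 of 36 mitosis promoters (33.3%, all genes 11.3%).

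Of the 33 genes called higher, the 15 largest rises held Xist, Tsix and 13 others, none of which belongs to a stage or pathway list. Rnase12, of the RNase A family, was at 1.20, 0.646 and 0.75 in wild-type and 18.2, 17.7 and 27.5 in double-deficient libraries and at 5.78, 5.59 and 6.42 and 6.84, 3.98 and 8.17 in the Plcg1-/-Plcg2+/+ and Plcg1+/+Plcg2-/- libraries, so that the 4 genotypes formed 3 separate levels. Its rise relative to Plcg1-/-Plcg2+/+ cells was also called (log2 fold change 1.83, adjusted p = 0.0465). The RefSeq window before its start is shown with an Ikaros core and an ETS-IRF composite in capitals; the composite, read on the other strand, was in 3 of 17 called higher genes with 1 promoter entry.
Rnase12, chr14:51057243-51057492, minus strand: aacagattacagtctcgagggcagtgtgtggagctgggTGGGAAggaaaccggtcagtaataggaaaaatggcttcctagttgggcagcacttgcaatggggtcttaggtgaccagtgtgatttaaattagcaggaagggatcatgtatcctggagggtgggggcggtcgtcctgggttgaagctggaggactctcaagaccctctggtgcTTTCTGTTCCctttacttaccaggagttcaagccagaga

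Ctse, which encodes the aspartic protease cathepsin E, was at 20.5, 32.1 and 58.8 in wild-type and 187, 340.3 and 272 in double-deficient libraries (log2 fold change 2.84 (SE 0.36), adjusted p = 0.00341). It was at 173, 166 and 209 in Plcg1-/-Plcg2+/+ and 32.2, 25.9 and 47.0 in Plcg1+/+Plcg2-/- libraries. The 2 genotypes that carry the floxed Plcg1 alleles were thus separate from the 2 that do not, the same split as for Xist and Ddx3y, and the difference from Plcg1-/-Plcg2+/+ cells was not called (log2 fold change 0.55, adjusted p = 0.459).

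Cacna1i, a pore subunit of T-type calcium channels, was at 21.5, 17.7 and 24.3 in wild-type and 80.3, 101 and 109 in double-deficient libraries (log2 fold change 2.19 (SE 0.30), adjusted p = 0.00589). It was called higher than in Plcg1-/-Plcg2+/+ cells too (log2 fold change 2.08, adjusted p = 0.0323). Synj2, an inositol phospholipid phosphatase, was at 7.09, 8.07 and 7.27 against 18.8, 32.5 and 26.7 (log2 fold change 1.81 (SE 0.23), adjusted p = 0.00363), and at 30.6, 26.8 and 25.2 in Plcg1+/+Plcg2-/- cells, which overlapped the double-deficient range. Synj2 was not called against Plcg1-/-Plcg2+/+ cells (log2 fold change 0.67, adjusted p = 0.185). Rnase12, Ctse, Cacna1i and Synj2 were called without any one library.

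The adhesion protein genes Pcdh9 and Cadm1 were at 10.7, 4.84 and 4.05 and at 2.60, 3.66 and 2.55 in wild-type libraries and at 27.1, 30.6 and 42.3 and 15.9, 9.32 and 22.1 in double-deficient libraries (log2 fold changes 2.36 and 2.42). Ifit1bl1, of the interferon-induced Ifit family, was at 7.99, 3.55 and 3.07 against 13.2, 28.3 and 19.6 (log2 fold change 2.09, adjusted p = 0.0292). These 3 genes, together with the heme-binding Hebp1 (2.49), the aminoacylase Acy3 (1.89), the cadherin-related Cdhr2 (4.11), Rnaset2b (3.45), A630023P12Rik (2.62) and A930015D03Rik (2.30), lost their call on leaving out at least 4 of the 6 libraries in turn, and the estimates stayed above 0. Ifit1bl1 and Acy3 were also not called in the fit of the 6 libraries alone. Of these 9 genes, the estimates relative to Plcg1-/-Plcg2+/+ cells were called for Pcdh9 (2.49, adjusted p = 0.0457) and Acy3 (2.44, adjusted p = 0.0457) but not for Cadm1 (1.19), Ifit1bl1 (1.48), Hebp1 (0.75), Cdhr2 (1.15), Rnaset2b (0.17), A630023P12Rik (2.41) or A930015D03Rik (1.67). Rnaset2b has a near-identical neighboring copy, and how reads were divided between the 2 is uncertain.

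**Figure D4:**
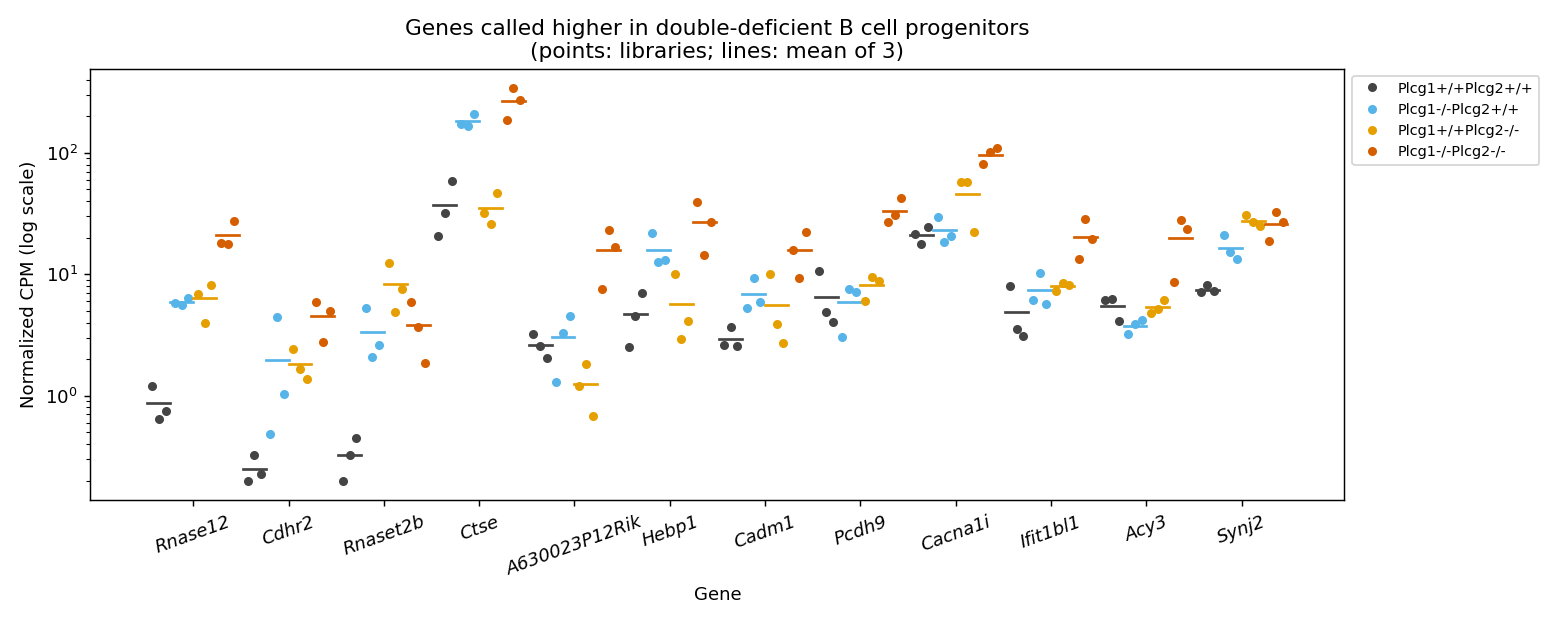
Normalized CPM on a log axis of 12 of the 15 genes with the largest called rises in double-deficient B cell progenitors (Xist, Tsix and A930015D03Rik not drawn), with 1 point per library and a line at the mean of 3 libraries of each genotype. All 3 double-deficient points lie above the 3 wild-type points for each gene, and for Ctse the Plcg1-/-Plcg2+/+ points (166 to 209) lie near the double-deficient ones (187 to 340).

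Of the 15 largest falls 4 were the Y-linked Ddx3y, Kdm5d, Eif2s3y and Uty, and the others of no stage or pathway list were Myl4, Kcnk13, Shank2, Lrrc10b, Rbm24 and Fam189a1. Myl4, a myosin light chain otherwise known from the heart atrium, was the most abundant of them at 278, 281 and 200.2 in wild-type and 19.5, 24.1 and 21.5 in double-deficient libraries (log2 fold change -3.53 (SE 0.51), adjusted p = 0.00747). It was called without any one library, and against Plcg1-/-Plcg2+/+ cells (-2.86, adjusted p = 0.0465), in which it was at 102, 273 and 102. The potassium channel gene Kcnk13 was at 5.39, 5.38 and 3.82 against 0.331, 0.298 and 0.133, and the synaptic scaffold gene Shank2 at 7.09, 3.12 and 2.70 against 0.661, 0.128 and 0.4. In these last 2 the double-deficient libraries were near the level of 3 reads, 0.12 to 1.05 CPM, and the calls were lost without double-deficient library 2 or 3 (both genes) or any wild-type library (Shank2). Kcnk13 (-3.98, adjusted p = 0.0457) and Rbm24 (-4.29, adjusted p = 0.0465) were called lower than in Plcg1-/-Plcg2+/+ cells too, while Shank2 (-3.10), Lrrc10b (-4.27) and Fam189a1 (-4.70) were not. Lrrc10b, Rbm24 and Fam189a1 had the largest called falls against wild type (log2 fold changes -5.29, -5.21 and -5.06). With 1 library left out these ran from -5.42 to -5.06, -6.57 to -4.50 and -7.52 to -4.67.

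Markers of other cell types were examined because the sorted cells can hold more than B lineage cells. Of 14 neutrophil and granulocyte precursor genes tested none was called, 14 estimates were above 0 and the median log2 fold change was 1.25. Their summed level was 1514, 2286 and 4671 in the wild-type and 7256, 2869 and 6736 in the double-deficient libraries, with overlap. For 19 macrophage and monocyte genes the median was 0.73 and the sums were 488, 692 and 1389 against 2349, 711 and 1690, again with overlap.

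For 11 plasmacytoid dendritic cell genes, a B220+ population that also expresses interferon-stimulated genes, the median was 0.71 and the sums were 857, 696 and 913 against 1838, 1037 and 1382, without overlap. For 15 T cell genes the median was 0.75 and the sums were 137, 159.6 and 168 against 205, 215 and 286, also without overlap. In Plcg1-/-Plcg2+/+ libraries the plasmacytoid dendritic sums were 1413, 732.7 and 1315 and the T cell sums 112, 180.2 and 382.7. Both ranges overlapped the double-deficient ones. For 16 NK and innate lymphoid cell genes the median was 0.71. Medians were also above 0 for conventional dendritic cells (0.44), erythroid cells and megakaryocytes (0.77), basophils and mast cells (0.92), stem and multipotent progenitors (0.76) and stroma and endothelium (0.47). Several of these medians rested on single libraries. Without double-deficient library 1 they were -0.53 for conventional dendritic cells, 0.23 for basophils and mast cells, 0.27 for stem and multipotent progenitors, 0.28 for stroma and endothelium, 0.32 for NK and innate lymphoid cells and 0.45 for erythroid cells and megakaryocytes, and without double-deficient library 3 they were 0.15 for T cells and 0.82 for granulocytes. No marker of these 10 cell types was called, and none was at 0 in all 6 libraries except the hemoglobin genes Hba-a1, Hbb-bs and Hbb-bt, which every library lists at 0. Relative to Plcg1-/-Plcg2+/+ cells the medians were 0.51 for granulocytes, -0.04 for macrophages, 0.01 for plasmacytoid dendritic cells and -0.70 for T cells. They were -0.43 for NK and innate lymphoid cells, -0.42 for conventional dendritic cells and 0.57 for erythroid cells and megakaryocytes. The last were 0.32 for basophils and mast cells, 0.06 for stem and multipotent progenitors and -0.07 for stroma and endothelium. Of 6 tested genes of the plasma cell list 1 was called lower (0.673% over all genes tested), Sdc1, which encodes CD138 and is also displayed by early B cells. It was at 53.1, 56.3 and 52.5 against 25.1, 19.6 and 15.9 (log2 fold change -1.44, adjusted p = 0.0261). Its call was lost without double-deficient library 2 or 3 or any wild-type library (estimates -1.59 to -1.28), and it was not called against Plcg1-/-Plcg2+/+ cells (log2 fold change -1.04, adjusted p = 0.161).

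The part of these other cells in the lower B lineage and higher interferon-stimulated levels was not tested. Double-deficient library 1, with the highest granulocyte, macrophage and plasmacytoid dendritic sums of the 6, had the lowest sums for the B lineage check list (2543, 6537 and 5111 in double-deficient libraries, 4277, 4806 and 3661 in wild-type). Library 1 of Plcg1-/-Plcg2+/+ and of Plcg1+/+Plcg2-/- cells also had the lowest B lineage check sum of its genotype (2374 and 2494). The granulocyte sum of these libraries was the highest of their genotype (8450 and 8570). Without double-deficient library 1 Il2ra, Bach2, Cd22 and Cd2 of the pre-B list were called, with 119 genes in all. This omission does not test the part of other cells. Double-deficient libraries 2 and 3 still had plasmacytoid dendritic sums (1037 and 1382) and T cell sums (215 and 286) above every wild-type library. Their granulocyte, macrophage and NK sums overlapped the wild-type ones.

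**Figure D5:**
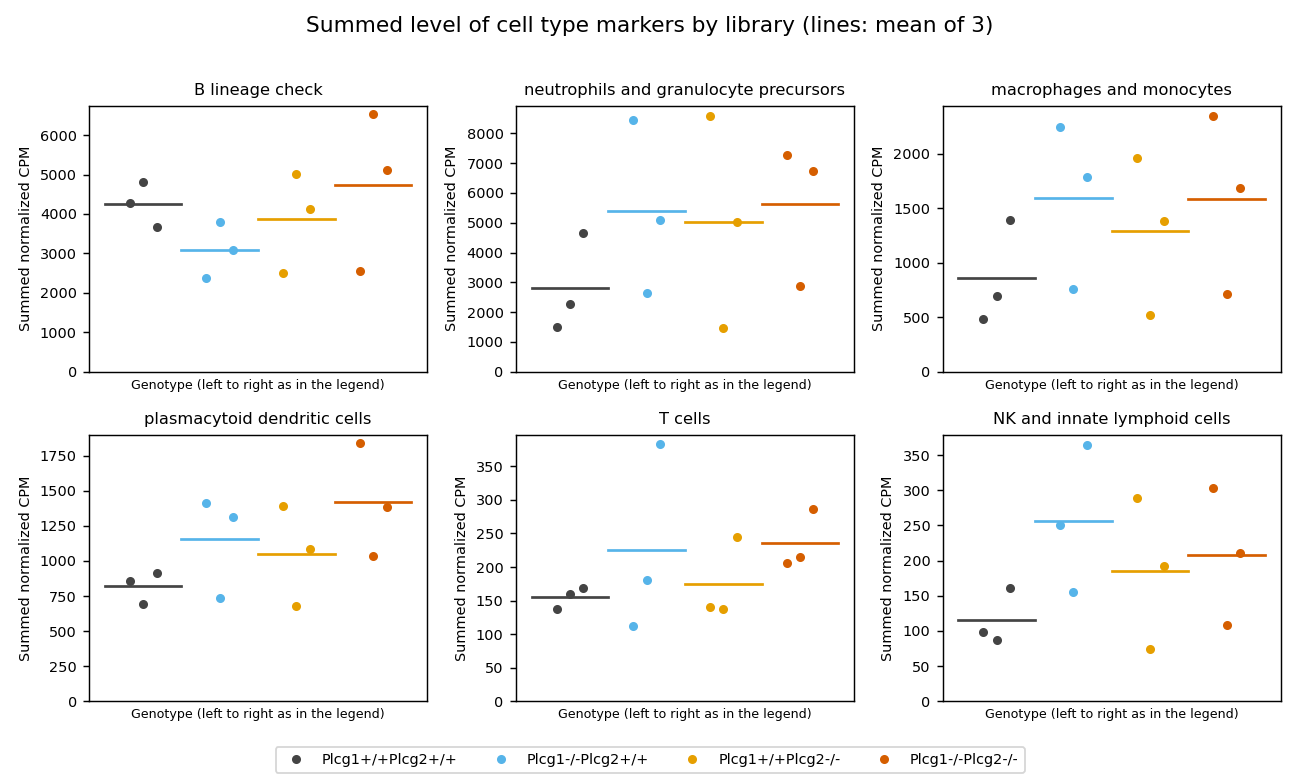
Summed normalized CPM of the B lineage check list and 5 lists of markers of other cell types, with 1 point per library and a line at the mean of 3 libraries of each genotype, on axes from 0. Wild-type and double-deficient points overlap for the B lineage, granulocyte, macrophage and NK lists and do not for plasmacytoid dendritic cells and T cells.

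The same genotypes were next compared in the libraries labelled CLP (CD45.2+Lin-IL-7R+), taken from the same mice. These libraries also carried B lineage transcripts, with Pax5 means of 152 in wild-type and 134 in double-deficient cells, and only 17.9% to 29.8% of their reads lay on no gene. In the test of whether the double-deficient effect differs between the 2 populations, within mice, none of 17212 genes was called in edgeR, and 356 (2.07%) had an unadjusted p under 0.05. Il2ra was at a mean of 44.4 in wild-type and 8.29 in double-deficient CLP libraries (log2 fold change -2.41), Blk at 166 and 26.7 (-2.63), Bach2 at 359 and 119 (-1.59), Ctse at 49.9 and 294 (2.55) and Cacna1i at 21.3 and 203 (3.25). In the fit of all 24 libraries with a term for mouse, whose estimates are not the differences of those from the separate fits, the effect in B cell progenitors minus that in CLPs was estimated at -1.18, -0.09, -0.92, 0.31 and -1.06 on the log2 scale for these 5 genes in turn, none called.

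Relative to Plcg1-/-Plcg2+/+ cells, 32 of 15001 genes were called (0.213%), 9 higher (0.06%) and 23 lower (0.153%), a comparison that shares the double-deficient libraries with the one above. Members of the lists among the lower ones were Il2ra, Cd22, Blk, Fcmr, Ccr7, Ciita, Dtx1 and Plcg2. Without double-deficient library 1 the count was 58, without library 2 or 3 it was 0 or 2, and without Plcg1-/-Plcg2+/+ library 1, 2 or 3 it was 0, 3 or 11. This count rested on single libraries.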

How the data were processed

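RNA of B cell progenitors was measured by poly(A) RNA-seq in 6 libraries, 3 wild-type and 3 double-deficient, within 24 libraries. Alignment by the authors used STAR 2.5.0a and mm10, as the paper and the submitters' processing notes give it, and the authors deposited raw counts of reads for 24421 genes in each library; the counting program is not given in the sources used here. Lines for reads on no gene and for ambiguous reads were left out of library sizes and tests. Immunoglobulin gene segments were not analysed here.

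For the test, the counts of the 12 B cell progenitor libraries entered edgeR 4.0.16 (R 4.3.3; TMM, filterByExpr, glmQLFit, glmQLFTest, Benjamini-Hochberg adjustment over 15001 genes kept), with a term for genotype only, and a call needed an adjusted p no higher than 0.05 with a log2 fold change of 0.5 or more in size. Standard errors come from the F statistic. The difference of effects between populations was fitted on all 24 libraries with mouse as a covariate (17212 genes kept). Named genes were the targeted genes, Il7r, sex-linked genes, the 15 largest rises and falls among called genes whose groups did not overlap, called members of lists, and in a list the 3 of lowest adjusted p or highest level; other names were chosen after values were seen. Lists were written by hand from general knowledge, and the members and lists were chosen with earlier results of these data known. Alternatives tried were DESeq2 1.42.0, size factors by RLE, keeping genes of low counts, the 6 libraries alone, the replicate number as a block, the adjusted p alone and each library left out.

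Reads on genes ranged from 2858724 to 25057223 per library, 3 reads being 0.12 to 1.05 CPM, and counting intervals at these depths do not cover variation between mice. Replicates differed by far more than sampling noise. The fit was tested on simulated counts with known fold changes. Promoter windows were read from RefSeq on GRCm38.p6, and 9139 genes kept had 1 entry. Windows of the sequences shown end at the annotated start of the gene, which was not required of the other windows. Some genes are not reported here.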

Additional observations from a re-analysis of the deposited data

How the results depend on the processing

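The number of genes called against wild type, 134 (33 higher, 101 lower), was 238 (81 and 157) with the 6 libraries alone, 444 (172 and 272) with DESeq2 and 550 (190 and 360) with a block for the replicate number. It was within 1.5 times of 134 with RLE size factors, with no filter on low counts and with the adjusted p alone. Leaving out each library in turn gave 50 to 119 calls (9 to 52 higher, 40 to 67 lower). Of the 134 calls, 127 were shared with the 6-library fit, 132 with DESeq2, 133 with RLE size factors, 131 with no filter, 134 with the block and 50 to 86 with 1 library left out. Of 51 called genes named in the text outside the targeted and sex-linked ones, 22 to 38 were called with 1 library left out; none reversed where an alternative gave a value (DESeq2 gave 49 of them an adjusted p), and the estimates of the targeted and sex-linked genes kept their direction and side of the threshold under all of them.

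Called lower pre-B genes numbered 3 to 4 with 1 library left out, and called lower immature and mature B genes 9 with DESeq2, 8 with the block and 3 to 5 with 1 library left out. Called lower mitosis genes numbered 1 with the 6 libraries alone, 4 with DESeq2 and 20 with the block, and called lower replication genes 2 with DESeq2 and 5 with the block. Called higher interferon-stimulated genes numbered 4 with the 6 libraries alone, 6 with DESeq2, 1 with RLE size factors, 6 with the block and 0 to 1 with 1 library left out. Of 462 list medians under the alternatives, 447 moved by less than the spread between libraries, while the medians of 14 of the 42 lists turned sign without some library. The count against Plcg1-/-Plcg2+/+ cells, 32, was 802 with DESeq2, 17 with RLE size factors, 100 with the block and 0 to 58 with 1 library left out. No gene was called in the test of the difference between populations under any alternative tried. The causes of these changes were not tested.

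Same-numbered wild-type and double-deficient libraries deviated from their group means with correlations from -0.0617 to 0.288, beside -0.174 to 0.184 for libraries of different numbers. The main fit therefore held no term for the number. This check runs over all genes and leaves out the single-deficient libraries. It cannot exclude structure shared by number, such as that of the ERK and NF-κB sums. The count of calls depends on this choice, at 550 with the block. The block left the 134 genes called. Depth limits genes near 3 reads, 1.05 CPM in double-deficient library 1, where folds rest on few reads.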

Other observations

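Called genes outside the stage and pathway lists, chosen here after their values were seen, included several of metabolism and chromatin. Slc1a5, a glutamine transporter, fell from 759, 757 and 639 to 239, 345 and 332 (3 libraries each, log2 fold change -1.23, adjusted p = 0.035). Gclc, the catalytic subunit of glutathione synthesis, fell from 311, 366 and 343 to 100.2, 157 and 137 (log2 fold change -1.37, adjusted p = 0.0365). The class IIa histone deacetylases Hdac5 and Hdac9 both fell, Hdac5 from 307, 238 and 247 to 103, 72.9 and 90.0 (log2 fold change -1.58, adjusted p = 0.00119) and Hdac9 by a log2 fold change of -1.44 (adjusted p = 0.0168). Lgr5, an R-spondin receptor best known from intestinal stem cells, fell from 86.4, 86.9 and 72.0 to 10.6, 15.8 and 12.9 (log2 fold change -2.61, adjusted p = 0.00632). Hdac5 and Lgr5 were called without any one library, Slc1a5 and Gclc lost the call whichever of the 6 libraries was left out, and Hdac9 was called only without double-deficient library 1 or wild-type library 1. Against Plcg1-/-Plcg2+/+ cells Hdac5 (-1.07, adjusted p = 0.0457) and Hdac9 (-1.48, adjusted p = 0.0457) were called lower too, and Slc1a5 (-0.64), Gclc (-0.62) and Lgr5 (-1.92) were not.

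Genes of Ras family and kinase signaling were also among the called lower genes, chosen in the same way, and belong to no list here: the Ras GTPase activator Rasal1 (log2 fold change -2.07), the Ral exchange factor Ralgps2 (-1.99) and the calcium-regulated kinase Ptk2b (-0.66). Among the called higher genes were the endotoxin receptor Tlr4, from 14.98, 9.26 and 10.3 to 22.1, 36.2 and 32.0 (log2 fold change 1.40, adjusted p = 0.0378), and the transcription factor Stat4, from 35.3, 34.7 and 33.5 to 52.6, 102 and 78.8 (log2 fold change 1.18, adjusted p = 0.0386). Ralgps2 was called without any one library and Rasal1 without any one double-deficient library but not without a wild-type one. Tlr4 and Stat4 were called only without double-deficient library 1, and Ptk2b lost the call whichever library was left out and also with genes of low counts kept. Against Plcg1-/-Plcg2+/+ cells Ralgps2 was called (-1.50, adjusted p = 0.0465), and Rasal1 (-1.56), Ptk2b (-0.36), Tlr4 (1.08) and Stat4 (1.13) were not.

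Within 5 Mb of Plcg1 on chromosome 2, 3 of 96 tested genes were called, all lower (3.12%, beside 0.893% of all genes): Serinc3, 0610039K10Rik and Pkig. Serinc3, a membrane protein gene, was at 1766, 1921 and 1692 in wild-type, 469.7, 320.0 and 574 in double-deficient, 1320, 1664 and 1373 in Plcg1-/-Plcg2+/+ and 2405, 3196 and 2730 in Plcg1+/+Plcg2-/- libraries, and 0610039K10Rik overlaps its start on the other strand, so that the reads of both cannot be told apart. Within 5 Mb of Plcg2, none of 59 tested genes was called. Serinc3 and 0610039K10Rik were called without any one library, and Pkig only without double-deficient library 3 or wild-type library 3.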
